A study of Homo sapiens with 2 samples.

Results

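The G1/S cell cycle and replication genes were 10 protein-coding genes: RBL2, RB1, E2F1, E2F2, CCND2, CCND3, CDKN2C, CDKN1B, MCM2 and PCNA. They were fixed by name, and each was matched in RefSeq on GRCh38 among 19974 protein-coding genes of chromosomes 1 to 22 and X. Peaks were assigned to a gene where the summit, the base of highest enrichment, lay in the gene or within 10 kb, and the nearest peak was taken otherwise. The peaks came from F36P, a human erythroleukaemia cell line. One culture overexpressed ERG, an ETS-family transcription factor, with an AM tag from the retroviral plasmid MSCV-PIG-AM-ERG (AM-ERG). The other carried the empty plasmid MSCV-PIG and the genotype label WT (Vector). Both were selected for 4 days in puromycin at 1 µg/ml, and chromatin of both was precipitated with the antibody to the tag. With 1 library each and 1 list of 1645 peaks, whose library of origin the sources do not name, there was no replicate error and no test between AM-ERG and Vector. All comparisons are between genes or peaks within that list, and ERG was present as an overexpressed, tagged protein in a single cell line. A peak list holds no expression, so the labelled cell line could not be checked against marker genes.

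Entry into S phase is governed by the retinoblastoma pathway. D-type cyclins activate CDK4 and CDK6, which phosphorylate the pocket proteins (pRB, encoded by RB1, and p130, encoded by RBL2). Phosphorylated pocket proteins release E2F factors, which switch on genes of DNA replication. CDK inhibitors such as p18 (CDKN2C) and p27 (CDKN1B) hold the kinases back. MCM2 is a subunit of the replicative helicase, and PCNA is the sliding clamp of the DNA polymerases. In the erythroid lineage the last divisions are coupled to terminal maturation.

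Of the 10 genes, 6 had a peak (RBL2, E2F2, CCND3, CDKN2C, MCM2 and PCNA), and each of these had 1. By the same measure, 9.58% of all protein-coding genes counted as having a peak. At 3 of them, RBL2, E2F2 and CCND3, the summit lay inside the gene and just downstream of a transcription start; 5% of all protein-coding genes had a summit inside. The CDKN2C peak lay at the start of the divergent gene FAF1, and those of MCM2 and PCNA lay at or in a neighbouring gene. RB1, E2F1, CCND2 and CDKN1B had none. A summit within 1 kb of either end was found at 3 of the 10 genes (RBL2, E2F2 and CDKN2C) and at 5.86% of all protein-coding genes. The 10 genes were chosen with peaks at some of them already known, so their share of 60% (95% Wilson interval 31.3 to 83.2%, counting error only) is a description and was not tested.

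The promoter windows that reach into these peaks are shown first, since they place the peaks relative to the starts of the genes. Each is the RefSeq window of 300 bases around a start (250 bases before it, GRCh38.p14), written 5′ to 3′ on the gene's strand, with capitals for the bases inside a peak. RBL2 and E2F2 are entered by the peak only at the downstream edge of the window, by 20 and 37 bases. The CCND3 window is covered whole. The FAF1 window holds the peak that also counts for CDKN2C, in its last 97 bases. CDC45, which is not among the 10 genes, is shown because it had the strongest peak of all replication genes listed here, over 220 bases of the window.
RBL2, chr16:53434221-53434520 (plus strand): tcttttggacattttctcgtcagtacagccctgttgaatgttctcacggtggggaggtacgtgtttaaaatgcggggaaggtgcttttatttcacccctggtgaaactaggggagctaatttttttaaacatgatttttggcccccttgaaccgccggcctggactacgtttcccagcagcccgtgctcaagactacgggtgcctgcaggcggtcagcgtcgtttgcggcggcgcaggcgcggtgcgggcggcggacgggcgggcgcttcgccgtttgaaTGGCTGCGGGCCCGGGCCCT
E2F2, chr1:23531184-23531483 (minus strand): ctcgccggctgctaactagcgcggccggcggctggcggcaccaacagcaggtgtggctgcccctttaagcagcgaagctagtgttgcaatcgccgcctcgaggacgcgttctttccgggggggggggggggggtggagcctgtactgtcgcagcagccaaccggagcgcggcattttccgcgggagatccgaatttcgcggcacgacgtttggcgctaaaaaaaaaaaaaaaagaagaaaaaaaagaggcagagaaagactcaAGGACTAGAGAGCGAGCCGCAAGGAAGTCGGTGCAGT
CCND3, chr6:42048639-42048938 (minus strand): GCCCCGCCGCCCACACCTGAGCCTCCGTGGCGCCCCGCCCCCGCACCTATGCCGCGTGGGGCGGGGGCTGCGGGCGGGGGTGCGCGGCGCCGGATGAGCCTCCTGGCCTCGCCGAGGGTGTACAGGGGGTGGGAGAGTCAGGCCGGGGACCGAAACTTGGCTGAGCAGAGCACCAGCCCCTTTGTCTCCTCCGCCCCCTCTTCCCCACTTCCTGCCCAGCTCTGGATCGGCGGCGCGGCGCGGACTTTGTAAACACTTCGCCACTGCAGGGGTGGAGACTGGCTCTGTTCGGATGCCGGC
FAF1, chr1:50960218-50960517 (minus strand): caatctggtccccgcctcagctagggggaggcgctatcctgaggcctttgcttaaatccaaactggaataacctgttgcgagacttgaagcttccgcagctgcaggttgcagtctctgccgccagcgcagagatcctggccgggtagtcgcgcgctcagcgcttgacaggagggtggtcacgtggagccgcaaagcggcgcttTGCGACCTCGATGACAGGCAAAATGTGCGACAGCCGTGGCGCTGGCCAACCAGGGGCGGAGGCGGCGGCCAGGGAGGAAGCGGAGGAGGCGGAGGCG
CDC45, chr22:19479216-19479515 (plus strand): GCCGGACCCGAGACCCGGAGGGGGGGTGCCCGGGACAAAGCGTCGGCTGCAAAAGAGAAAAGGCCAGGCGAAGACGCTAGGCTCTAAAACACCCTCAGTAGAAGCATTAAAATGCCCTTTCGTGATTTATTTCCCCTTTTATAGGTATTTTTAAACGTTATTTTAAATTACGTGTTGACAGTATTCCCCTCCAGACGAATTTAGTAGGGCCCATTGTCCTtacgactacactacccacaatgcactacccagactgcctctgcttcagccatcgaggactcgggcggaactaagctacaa

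Fold enrichment, the authors' ratio of the signal at the summit to the local background, ranged from 4.20 to 7.19 over the 6 peaks, with a median of 4.83. Over the 1564 peaks of chromosomes 1 to 22 and X the median was 4.66, with quartiles of 3.83 and 5.77. RBL2 was the single one of the 6 above the upper quartile of all peaks, and the other 5 lay between the quartiles. By fold, the RBL2 peak ranked 174 of 1564, E2F2 552, PCNA 640, CDKN2C 769, MCM2 792 and CCND3 986. The RBL2 peak ranked lower by q (366) and by pileup (812). Its local background of 1.92 fragments was the lowest value found over all peaks, one that many other peaks also had. Its high fold thus came with an ordinary pileup of 20 fragments (median of all peaks 21).

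**Figure D1:**
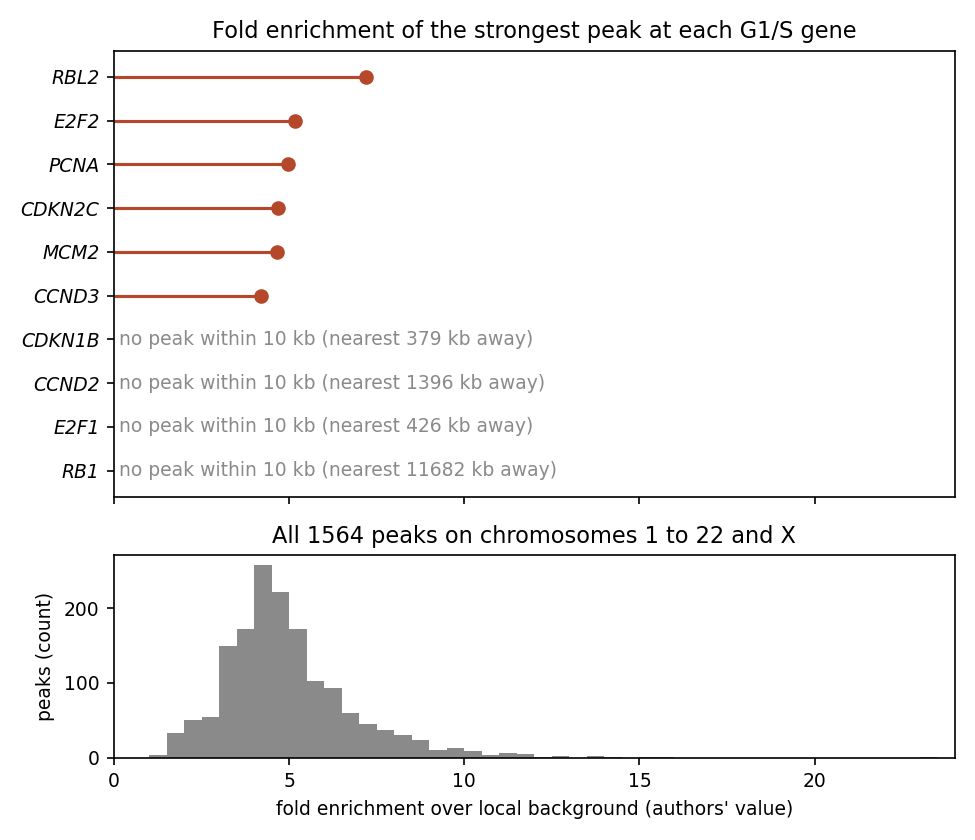
Fold enrichment over local background (x axis) of the strongest peak at each of the 10 genes (upper panel, points; genes without a peak carry the distance to the nearest one) and of all 1564 peaks (lower panel, histogram). RBL2 at 7.19 stands to the right of the bulk of the peaks, and the other 5 peaks, at 4.20 to 5.17, lie within it.

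Among the pocket protein genes, RBL2 had a peak and RB1 did not. RBL2 (gene 5934, chromosome 16, 53434471 to 53491648) had its peak at chr16:53434501-53434871, with the summit 221 bp downstream of the start. Its fold enrichment was 7.19 and its −log10 q, the significance given by the authors' peak caller, was 9.98. The pileup recovered at the summit was 20 fragments (exact Poisson 95% interval 12.2 to 30.9, counting error only) over a local background of 1.92 fragments. RBL2 had no other protein-coding gene within 10 kb of the summit. RB1 (chromosome 13, 48303751 to 48481890) was the most isolated of the 10 genes, with the nearest peak 11682 kb away. That peak, of 4.52 fold, lay 113 bp downstream of a start of DIAPH3, a formin gene whose product is needed for the division of erythroblasts in mice. Chromosome 13 held 14 peaks in all.

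Of the 2 E2F genes, E2F2 had a peak and E2F1 did not. E2F2 (gene 1870, chromosome 1, 23505212 to 23531233), an activating E2F that takes part in erythroid maturation in mice, had its peak at chr1:23530721-23531220 with the summit 154 bp downstream of the start. The fold was 5.17, the −log10 q was 6.20, and the pileup was 19 fragments (11.4 to 29.7) over 2.87. No other protein-coding gene lay within 10 kb. E2F1 (chromosome 20, 33675477 to 33686385), another activating E2F, was 426 kb from its nearest peak. That one had a fold of 4.72 and lay in EIF2S2, which encodes a subunit of the translation initiation factor eIF2.

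The D-type cyclin genes differed likewise. CCND3 (gene 896, chromosome 6, 41934933 to 42050035), the D cyclin known from mouse knockouts to set the number of divisions of erythroid precursors, had its peak at chr6:42048413-42048982. The summit was 182 bp downstream of the listed start and 1529 bp inside the outer end of the gene. It had the lowest fold of the 6, 4.20, a −log10 q of 4.18 and a pileup of 18 fragments (10.7 to 28.4) over 3.52. TAF8, which encodes a TFIID subunit, began 2018 bp from the summit on the other side. CCND2 (chromosome 12, 4273762 to 4305353) was 1396 kb from the nearest peak. That peak, of 4.97 fold, was at another cell cycle gene, 229 bp outside FOXM1, which encodes a forkhead factor of G2 and M phase, and inside RHNO1.

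Of the CDK inhibitor genes, CDKN2C counted by proximity and CDKN1B had no peak. The peak near CDKN2C (gene 1031, chromosome 1, 50960745 to 50974634) was at chr1:50960013-50960314, 511 bp upstream of the CDKN2C start and 33 bp downstream of the start of FAF1, which encodes Fas-associated factor 1. It was the least significant of the 6, with a −log10 q of 3.68, a fold of 4.68 and 13 fragments (6.92 to 22.2) over 1.99. CDKN1B (chromosome 12, 12717368 to 12722369) was 379 kb from the nearest peak, of 3.67 fold in GSG1.

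At the replication genes the counted peaks belonged by position to neighbours. The peak counted for MCM2 (gene 4171, chromosome 3, 127598411 to 127622436) lay at chr3:127589921-127590403, 8287 bp upstream of the MCM2 start and inside TPRA1, 609 bp downstream of one of its listed starts. Its fold was 4.65, its −log10 q was 5.54, and 20 fragments (12.2 to 30.9) piled up over 3.52. PCNA (gene 5111, chromosome 20, 5114953 to 5126622) had its peak at chr20:5112823-5113367, 1833 bp beyond the 3′ end of the gene and 13502 bp from its outer start. The summit was 44 bp outside TMEM230, which encodes a membrane protein of vesicle trafficking. The fold was 4.98, the −log10 q was 7.73 and the pileup was 25 fragments (16.2 to 36.9) over 4.22. MCM2, at 8287 bp, was the gene nearest to the limit of 10 kb on its inner side, and CDKN1B, at 379 kb, the nearest on its outer side.

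**Figure D2:**
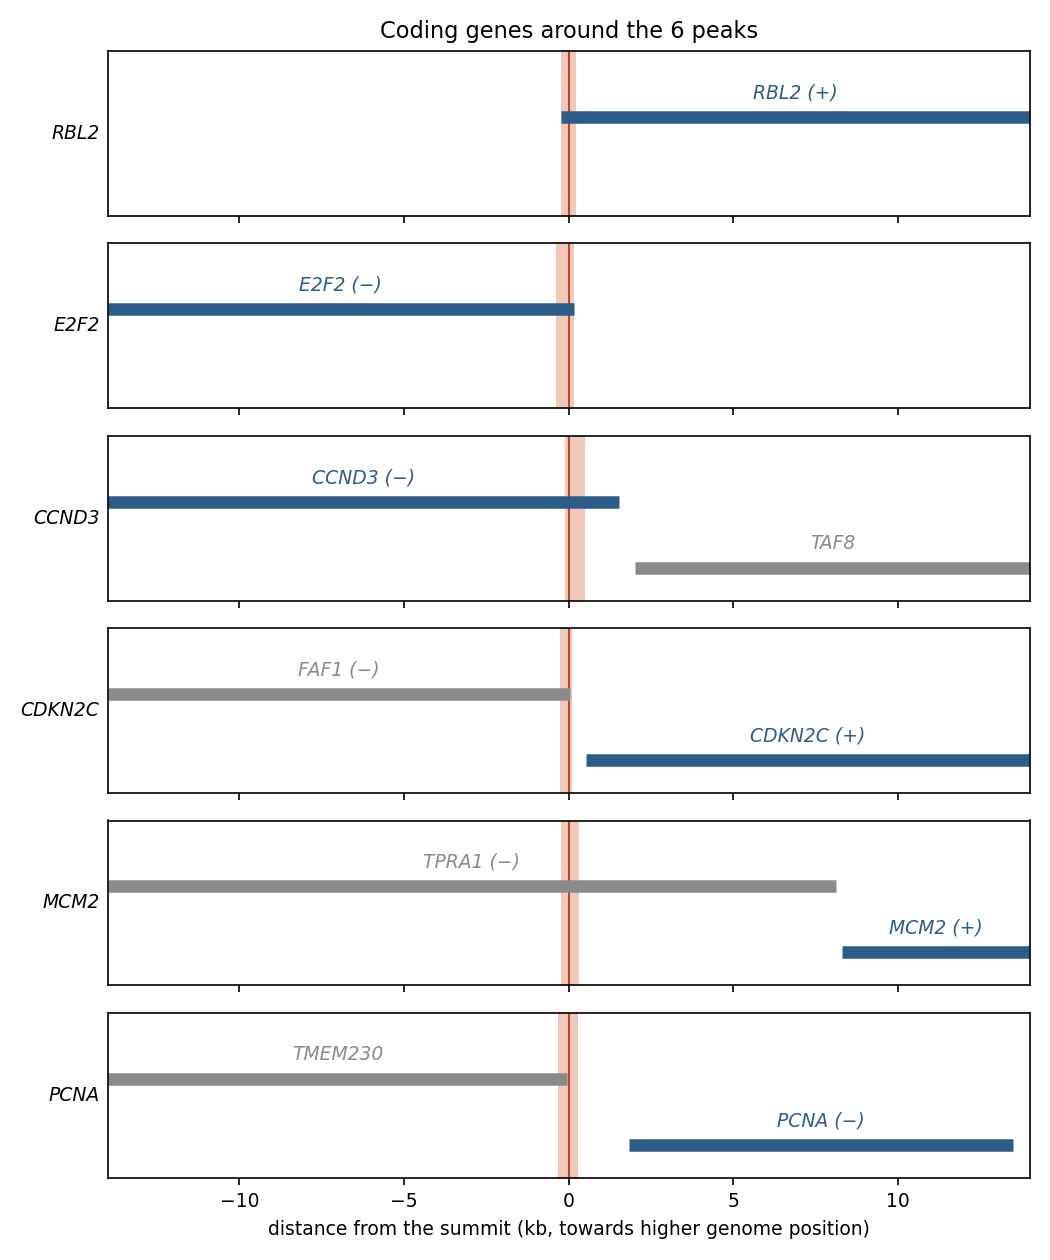
Protein-coding genes (bars) within 10 kb of the 6 summits, along the genome in kb from the summit (x axis); shaded bands are the peaks, the named gene is in blue, neighbours are in grey, and + or − gives the strand where a start is listed. The summits fall inside RBL2, E2F2 and CCND3, whereas FAF1 and TPRA1 hold those counted for CDKN2C and MCM2. The summit counted for PCNA lies 44 bp outside TMEM230, for which no start is listed.

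Assigning each peak only to its nearest protein-coding gene left 3 of the 6 genes (50%, Wilson interval 18.8 to 81.2%): RBL2, E2F2 and CCND3. Over all protein-coding genes with a peak, 1295 of 1913 (67.7%, 65.6 to 69.8%) were nearest to one. The first interval includes the second share. Among the upper 50% of peaks by q, 3 of the 10 genes had a peak (RBL2, E2F2 and PCNA), against 5.0% of all protein-coding genes.

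Peaks of equal pileup could differ in fold. RBL2 and MCM2 both had a pileup of 20 fragments, over 1.92 and 3.52 fragments of background, which gave folds of 7.19 and 4.65. The exact Poisson intervals of all 6 pileups, 13 to 25 fragments, shared the range from 16.2 to 22.2, so the peaks could not be ordered by pileup at this depth. Local backgrounds at the 6 peaks ran from 1.92 to 4.22 fragments (median 3.20), against a median of 3.52 over all peaks. None lay on a background above 2 times that median. The peaks were 302 to 570 bp wide (median 491.5 bp), against a median of 390 bp over all peaks.

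**Figure D3:**
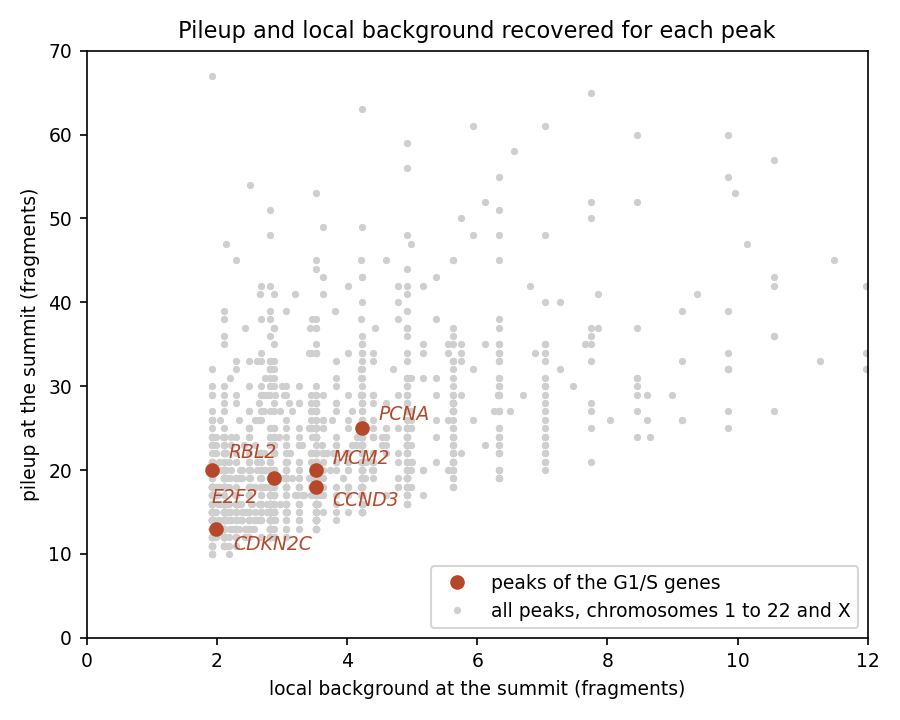
Pileup at the summit (y axis, fragments) against local background (x axis, fragments), recovered from the authors' fold and p for each peak; large points are the peaks of the 6 genes, small points all peaks within the axes (134 lie beyond 12 fragments of background or 70 of pileup). The 6 peaks sit among the many peaks of low background, with RBL2 and CDKN2C at the left edge.

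The RefSeq starts gave each summit a direction relative to transcription. Summits at RBL2, E2F2 and CCND3 were 221, 154 and 182 bp downstream of the start. Among 880 summits within 1 kb of a listed start of a protein-coding gene, 555 (63.1%, Wilson interval 59.8 to 66.2%) were downstream. The median position of the 880 was 84 bp downstream (quartiles −109 and 188 bp), and 279 (31.7%) lay 100 to 250 bp downstream. That band takes in all 3 genes, and their place in it is a description that was not tested. Counted per 50 bp, summits were most frequent at 150 to 200 bp (112), with 66 at 200 to 250 bp and 18 at 250 to 300 bp. The CDKN2C summit lay outside that band relative to its own start (−511 bp), and the same summit was 33 bp downstream of the FAF1 start. Among the 9 genes with a listed start 4 had a summit within 1 kb of one, against 6.41% of 15813 protein-coding genes.

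**Figure D4:**
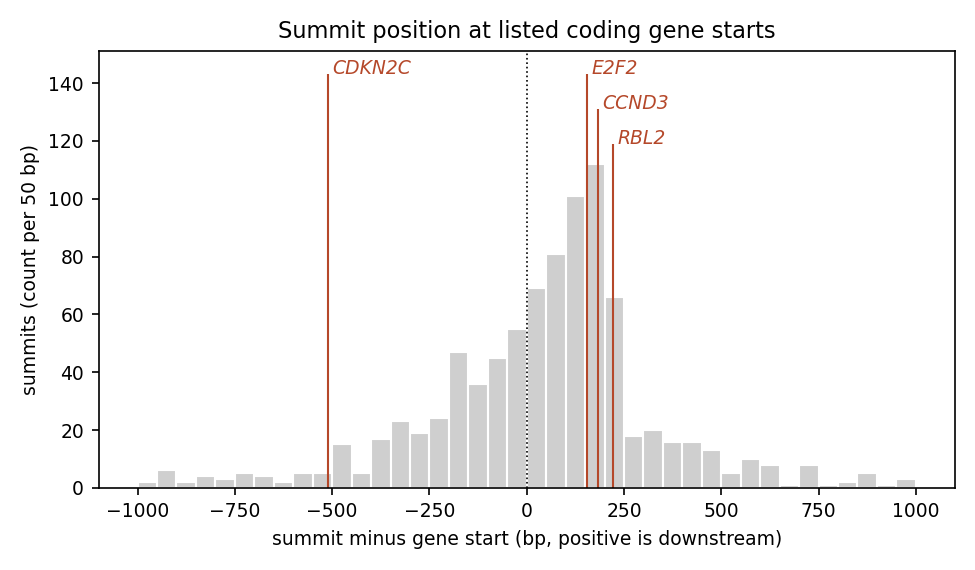
Number of summits per 50 bp (y axis) by distance from the nearest listed start of a protein-coding gene (x axis, bp, positive is downstream), over 880 summits within 1 kb; lines mark the summits at E2F2, CCND3, RBL2 and CDKN2C relative to their own starts. E2F2, CCND3 and RBL2 fall at 154 to 221 bp, in or beside the highest bin, and CDKN2C at −511 bp.

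Short motifs were then searched on both strands of the promoter windows: CCGGAA for ETS factors, TTTNNCGC for E2F (N is any base), TTTGAA for the CHR element read by the DREAM complex, CCAAT for NF-Y and GGGCGG for the GC box of SP factors. An outer start was listed for 8 of the genes, and RB1 and CCND2 were not searched. The E2F motif was present at 4 of 8, E2F1, E2F2, MCM2 and PCNA, against 9.15% of 14764 windows of protein-coding genes. The ETS motif was present at 2 of 8, E2F2 and PCNA, against 23.2% of all windows; with the longer CCGGAAG it was 0 of 8, against 14.6%. The E2F motif was in 13.4% of the 911 windows with a summit within 1 kb of the start. The 4 windows with E2F matches are shown because they hold every ETS and E2F match among the 8; E2F2 had a summit within 1 kb of this start, and E2F1, MCM2 and PCNA did not. Capitals mark the ETS and E2F matches, which shared no base.
E2F2, chr1:23531184-23531483 (minus strand): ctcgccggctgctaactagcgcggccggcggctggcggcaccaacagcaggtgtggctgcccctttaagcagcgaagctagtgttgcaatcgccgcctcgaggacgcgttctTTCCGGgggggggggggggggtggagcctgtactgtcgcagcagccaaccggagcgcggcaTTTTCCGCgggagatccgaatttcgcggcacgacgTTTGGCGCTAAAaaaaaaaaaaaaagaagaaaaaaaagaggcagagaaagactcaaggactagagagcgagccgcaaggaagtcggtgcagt
E2F1, chr20:33686336-33686635 (minus strand): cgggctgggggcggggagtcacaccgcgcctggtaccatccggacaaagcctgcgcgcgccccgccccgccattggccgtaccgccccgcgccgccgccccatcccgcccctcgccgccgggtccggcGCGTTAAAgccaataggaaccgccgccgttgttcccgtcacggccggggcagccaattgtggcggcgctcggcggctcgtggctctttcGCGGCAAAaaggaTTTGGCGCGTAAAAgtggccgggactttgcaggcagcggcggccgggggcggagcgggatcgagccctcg
MCM2, chr3:127598161-127598460 (plus strand): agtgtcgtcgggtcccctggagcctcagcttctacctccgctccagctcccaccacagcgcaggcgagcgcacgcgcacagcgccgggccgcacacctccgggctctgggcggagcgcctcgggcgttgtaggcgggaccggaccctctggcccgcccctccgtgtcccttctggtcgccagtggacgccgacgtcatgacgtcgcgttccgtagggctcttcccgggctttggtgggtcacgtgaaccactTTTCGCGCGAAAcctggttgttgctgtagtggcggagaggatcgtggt
PCNA, chr20:5126573-5126872 (minus strand): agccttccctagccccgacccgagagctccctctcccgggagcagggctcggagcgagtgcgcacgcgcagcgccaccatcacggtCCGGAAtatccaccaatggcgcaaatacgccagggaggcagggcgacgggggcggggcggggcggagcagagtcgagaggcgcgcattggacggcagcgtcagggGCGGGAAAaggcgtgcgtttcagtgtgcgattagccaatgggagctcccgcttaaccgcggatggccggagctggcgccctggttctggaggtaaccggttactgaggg

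E2F2 carried 1 match to CCGGAA, whose first base was 138 bp upstream of the start and so outside the peak, and 3 E2F matches. The shorter form GGAA did occur among the 37 bases of its window inside the peak. E2F1 carried 4 E2F matches, the nearest 14 bp upstream of the start, and no ETS match. PCNA had 1 of each, at −164 and −59 bp, both in the promoter and far from its summit beyond the 3′ end. MCM2 had a pair of overlapping E2F matches 2 and 6 bp downstream of the start. RBL2, CCND3 and CDKN2C, which had a summit within 1 kb of this start, held neither CCGGAA nor TTTNNCGC, nor did CDKN1B. The shorter ETS form GGAA was in all 8 windows, these included, and in 95.2% of all windows. At CCND3, whose window is covered whole by the peak, GGAA therefore lies within the peak. Among the 911 protein-coding genes with a summit within 1 kb of the outer start, 55.5% of windows (Wilson interval 52.3 to 58.7%) held the ETS motif. Of the 4 such genes here, 1 did (25%, 4.56 to 69.9%). The windows end 50 bp after the start, before the summits of RBL2, E2F2 and CCND3, and the bases under those summits were not searched.

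The GC box was found at 6 of 8 windows (all but E2F2 and CDKN2C), against 59.1% of all. CCAAT was found at E2F1, CDKN1B and PCNA, against 36.6% of all, and the CHR motif at RBL2 alone, 24 bp downstream of the start (11.98% of all). Windows of the 8 genes were 46.3 to 73.3% G and C (median 65.2%), with CDKN2C the lowest and E2F1 the highest, against a median of 63% over all.

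The wider G1/S and replication machinery was described from lists by role, made with earlier results of these data known. Of 95 listed genes, 19 had a peak by this measure (20%, Wilson interval 13.2 to 29.1%), against 9.58% of all protein-coding genes. Without the 10 genes above it was 13 of 85 (15.3%, 9.16 to 24.4%), an interval that includes the share of all genes. Of the 19 genes, 9 were nearest to a peak (47.4%, Wilson interval 27.3 to 68.3%), against 67.7% over all protein-coding genes with one. The other 10 were counted only through peaks nearer to another gene, as were 618 of the 1913 protein-coding genes with a peak.

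The regulator lists had 8 of 43 genes with a peak (18.6%), against 9.58% of all protein-coding genes. RBL2, E2F2, CCND3 and CDKN2C, from the 10 genes chosen with peaks known, are among the 8, so this share is a description only. The list of pocket protein and DREAM genes had 3 of 10, RBL2 with LIN37 (fold 4.90) and FOXM1 (4.97). FOXM1, the factor of G2 and M phase named above, was counted in this list and not with the mitosis genes. LIN37 encodes a MuvB subunit, and its peak lay 3784 bp away at PROSER3, 127 bp downstream of that gene's start. E2F and DP genes had 2 of 10, E2F2 and E2F3 (3.90). The E2F3 summit was 198 bp downstream of an inner start, which lies within the gene. Cyclin and kinase genes had 1 of 10, CCND3, and the CDK inhibitors 1 of 7, CDKN2C. Genes of SCF and CKS control had 1 of 6, CKS1B (3.14), at a peak shared with SHC1, an adaptor gene, and 265 bp downstream of a SHC1 start.

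The replication machinery lists had 11 of 52 genes with a peak (21.2%, Wilson interval 12.2 to 34.0%), against 9.58% of all protein-coding genes. MCM2 and PCNA, from the 10 genes chosen with peaks known, are among the 11, so this share is a description only. With each peak given only to its nearest protein-coding gene, ORC2, MCM4, MCM7, RFC4 and RPA2 kept a peak. By that measure 6.48% of all protein-coding genes had one. Replication licensing and helicase genes had 6 of 23 (26.1%). The strongest was CDC45, which encodes a helicase cofactor, at chr22:19478970-19479435, with a fold of 11.7, a −log10 q of 29.9 and 42 fragments over 2.68. It ranked 14 of 1564 by fold. The summit was 239 bp upstream of the nearest CDC45 start and 34 bp outside UFD1, which encodes a cofactor of the p97 ATPase. Next to MCM2, other helicase subunit genes with a peak were MCM7 (4.12), shared with AP4M1, and MCM4 (3.88), shared with PRKDC, which encodes the catalytic subunit of DNA-PK. ORC2 (4.56), an origin recognition subunit gene, had its summit 196 bp downstream of the start. CDT1 (3.64), a licensing factor gene, was 3030 bp from a peak at APRT, the adenine phosphoribosyltransferase gene.

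Replication fork genes had 5 of 23 (21.7%), PCNA among them, against 9.58% of all protein-coding genes. RPA2 (4.42), a subunit gene of the single-strand binding protein RPA, had its summit 218 bp outside the gene. RFC4, a clamp loader subunit gene, had 2 peaks, of 4.27 fold 112 bp upstream of its start and of 4.22 fold 6483 bp away at EIF4A2. The peaks counted for the polymerase genes POLD1 (4.48) and POLE2 (4.12) lay 7697 and 9540 bp away, at NR1H2, the gene of the nuclear receptor LXR beta, and at DNAAF2. Nucleotide supply genes had 0 of 6. Of 20 mitosis genes, listed for contrast, 1 had a peak (5%, Wilson interval 0.888 to 23.6%): CDC20 (4.50), the gene of an activator of the anaphase-promoting complex, 4628 bp from a summit at ELOVL1. The intervals of the role lists overlapped one another, and no difference between roles was tested.

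**Figure D5:**
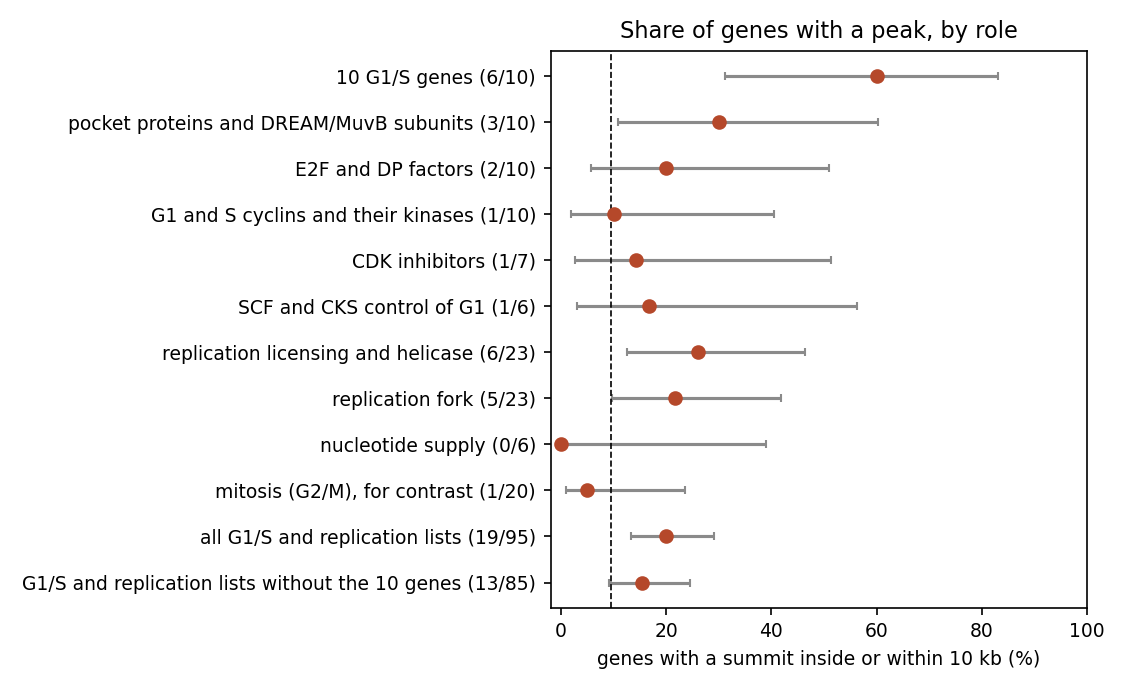
Percentage of genes with a summit inside or within 10 kb (x axis) for the 10 genes, each list by role and the lists together, with 95% Wilson intervals for counting error; the dashed line is the 9.58% of all protein-coding genes. The 10 genes, chosen with peaks known, stand at 60%, the lists together at 20%, and without the 10 genes at 15.3%.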

How the data were processed

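ChIP-seq with an antibody to the AM tag was done in F36P cells carrying AM-ERG or the empty vector, with 1 library each. The submitters' processing notes name Bowtie2, MACS2, deepTools and build hg38, without settings. Per the labels' protocols, chromatin was digested with micrococcal nuclease. The deposited peak list has no header. Its columns hold the authors' score (not used for any result), fold enrichment (a ratio to local background), −log10 of the p-value, −log10 of the q-value and the offset of the summit. The largest q was 0.0474.

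Pileup and background were recovered by solving the fold, (pileup + 1)/(background + 1), and a Poisson tail for p together. The deposited p was matched within 0.001 in log10 for 100% of peaks. Of simulated peaks made with the same formulas, 300 of 300 were recovered, which checks the solving and not the formulas. Read depth is unknown. The 81 peaks on other sequences were left out. Genes and promoter windows are RefSeq's (GRCh38.p14). All 10 genes and all 115 listed genes were matched, and chromosome 8 was not used for starts and windows. An outer start is the most upstream one listed within 2 kb of the gene's 5′ end. The 10 genes and the lists were chosen with earlier results of these data known. The genes named are the 10 genes, the genes sharing their peaks or nearest to the closest peak, and every listed gene with a peak. No test was run. Wilson and Poisson intervals are at 95% and cover counting error only. The window, threshold, assignment, background and motif were varied. Software was matplotlib 3.10.9, SciPy 1.17.1, numpy 2.4.6 and pandas 2.3.3 on Python 3.11.15.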

Additional observations from a re-analysis of the deposited data

How the results depend on the processing

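No paired analysis was possible because AM-ERG and Vector have 1 library each. The 6 genes with a peak were 3 with summits inside the gene, as a narrower window implies (7 of the 95 listed genes; 5.0% of all protein-coding genes), 3 among the upper 50% of peaks by q (10 listed; 5.0%) and 3 with each peak given to its nearest gene (9 listed; 6.48%). They were 4 to 6 under the other windows, q of at most 0.001, any base of the peak, or without raised background, where listed genes were 13 to 24. The share of all protein-coding genes was 7.23, 8.38, 13.1 and 17.7% with windows of 1, 5, 25 and 50 kb, 8.18% at q of at most 0.001, 9.14% without raised background and 9.66% with any base. The median fold stayed between 4.83 and 5.17. The ETS count of 2 of 8 was 8 with GGAA (95.2% of all windows), 0 with CCGGAAG (14.6%) and 0 within 50 bases of the start (12.5%). The E2F count was 4 with TTNNCGC (32.4%), 3 with TTCCCGC or TTGGCGC (12.4%) and 3 within 50 bases of the start (2.91%). The weakest binding that could have entered the list is unknown, since read depth is.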

Other observations

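With the window widened to 25 kb, 21 of the 95 listed genes had a peak, against 19 at 10 kb, while the share of all protein-coding genes was 13.1%, against 9.58%. CDC6, which loads the replicative helicase, was 18.2 kb from the summit of highest fold (23.3) on chromosomes 1 to 22 and X. That summit lay inside RARA, the retinoic acid receptor alpha gene. CCND1, the third D-type cyclin gene, was 20.7 kb from a peak of 5.17 fold at LTO1. CENPA, which encodes the centromeric histone variant, was 17.0 kb from a peak of 4.85 fold at SLC35F6. They were singled out once their distances had been seen.

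The surroundings of the 10 genes differed in peak number. Within 1 Mb, CCND3 and MCM2 had 6 peaks each, E2F2 and PCNA 4, RBL2 and E2F1 2, CDKN2C and CDKN1B 1, and RB1 and CCND2 none. Within 100 kb, the 6 genes with a peak had that peak and no other. These counts were not made over all protein-coding genes, and the differences were not tested.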
